A study of Homo sapiens with 48 samples.

Results

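The aminoacyl-tRNA synthetases are the enzymes that join each amino acid to its tRNA. Their mRNAs were followed in human HEK293 cells, an embryonic kidney line, given angiotensin II (AII), epidermal growth factor (EGF) or both. Members were the protein-coding genes whose symbol is the letter code of an amino acid followed by ARS (EPRS for the enzyme that charges both glutamate and proline), with the ending 1, 2, A, B or none. This rule used no measured value, and 35 such genes of the 60610 listed are described. Of these, 19 encode the cytosolic enzymes and 16, with symbols ending in 2, the mitochondrial ones. All 35 were among the 19626 genes that passed the filter on low counts.

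A synthetase recognises its tRNA and amino acid, activates the amino acid with ATP and transfers it to the tRNA, so that the ribosome can use it. Cytosol and mitochondria mostly use separate enzymes, all encoded in the nucleus, whereas glycyl-tRNA synthetase (GARS1) and lysyl-tRNA synthetase (KARS1) serve both compartments from 1 gene each. Several cytosolic enzymes sit together in the multi-synthetase complex. Many cytosolic synthetase genes are known targets of ATF4, the transcription factor of the amino acid response, which binds composite C/EBP-ATF elements.

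The cells were a HEK293 line made by stable transfection with the AT1 receptor for AII, puromycin selection with losartan, an AT1 receptor blocker, in the medium, and dilution cloning, so the results describe 1 clone. Serum was removed before the stimuli were added. At 6 h and at 24 h there were 4 groups, an untreated control, 1 nM AII, 10 µg/L EGF, and AII + EGF at the same concentrations. Poly(A) RNA was sequenced from 48 libraries, and after 10 libraries were set aside the groups held 4 control, 5 AII, 3 EGF and 4 AII + EGF libraries at 6 h, and 6 control, 5 AII, 5 EGF and 6 AII + EGF libraries at 24 h.

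The 10 libraries set aside were of 2 kinds. In 4 of 1128 pairs of libraries, the counts differed by less than sampling noise (chi-square per degree of freedom 0.397 to 0.505, against 2.02 for the next closest pair of 1 group), and 3 of these 4 pairs carried labels of different groups. All 8 libraries of these pairs were left out. On a scale built from 1492 genes, with the other AII libraries at 6 h near 0 and the other AII + EGF libraries near 1, replicate 6 of AII, as labelled, scored 0.854 and replicate 6 of AII + EGF, as labelled, scored -0.006, so neither matched its label and both were left out. The 38 remaining libraries held 17783804 to 29956472 counts (22343744 ± 3018217, SD). AGTR1, the transfected receptor, stood at 4271 ± 239 CPM (counts scaled to a common library total) in control cells at 6 h and at 10041 ± 436 CPM under AII + EGF. Of the HEK293 markers, VIM, KRT8, KRT18, NEFL and NEFM had medians from 60.02 to 4691 CPM and PAX2 1.26 CPM, while PTPRC, CD3E and HBB had medians of 0 and PECAM1 and ALB were under 0.1 CPM. COL1A1, a fibroblast collagen, had a median of 23.2 CPM.

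All levels here are CPM after TMM scaling, and all differences are log2 differences with their standard errors. A gene passed when edgeR's quasi-likelihood test gave an adjusted p under 0.01 over all 19626 genes. A 1.5-fold rule asked in addition for a 1.5-fold difference and a mean above 5 CPM in the higher group. The study used these limits too and also required a call by DESeq2, which the counts here do not. Replicate numbers follow the order of the libraries within a group, and the labels state no pairing across groups. Libraries of the same time and number lay in the same stretch of consecutive titles. Deviations from group means correlated more within stretches than between them (mean r 0.377 against -0.135). The main fit had no term for the stretch. The labels do not say whether libraries came from separate cultures, so the p-values measure the spread between these libraries.

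In control cells at 6 h, the cytosolic synthetases were the more abundant class. Per kilobase of the canonical transcript, the median level was 48.6 CPM over the 19 cytosolic genes and 12.8 CPM over the 16 mitochondrial genes. The cytosolic genes ran from CARS1, for cysteine, at 11.7 CPM per kilobase to QARS1, for glutamine, at 158 CPM per kilobase. The mitochondrial genes ran from VARS2, for valine, at 0.182 CPM per kilobase to IARS2, for isoleucine, at 62.3 CPM per kilobase. VARS2 (0.651 ± 0.603 CPM, SD, n = 4) and SARS2 (2.54 ± 0.515 CPM, n = 4) were the lowest members. VARS2 shares 4073 exon bases, and SARS2 1492, with another annotated gene on the same strand, and reads in shared exons may not have been counted for either gene. The 2 genes also had the widest spread within groups, an SD of 0.48 for VARS2 and 0.30 for SARS2 on the log2 scale, against 0.09 for LARS1, the leucine enzyme with the narrowest.

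The summed level of the cytosolic synthetases was highest with AII + EGF at 6 h. It was 3094 ± 269 CPM (SD, n = 4) in control cells, 3596 ± 256 CPM (n = 5) under AII, 3569.6 ± 124 CPM (n = 3) under EGF and 4005 ± 231 CPM (n = 4) under AII + EGF. Every AII + EGF library, at 3819 CPM or more, lay above every control library, at 3422 CPM or less. The summed mitochondrial level overlapped between groups, with 863 ± 43.6 CPM in control cells, 818 ± 48.1 CPM under AII, 884 ± 41.9 CPM under EGF and 792 ± 56.4 CPM under AII + EGF. At 24 h the cytosolic sums were 2638 ± 274, 2605 ± 248, 3009.5 ± 180.1 and 2894 ± 204 CPM in the same order of groups, and their ranges overlapped. As a share of the unscaled library total at 6 h, the mitochondrial sum was 0.0691% to 0.0736% with AII + EGF, below every other library (0.0784% or more). The cytosolic share was 0.359% to 0.366% with AII + EGF, within the range of 0.341% to 0.367% under AII and above control (0.292% to 0.307%).

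With AII + EGF for 6 h, 11 members were higher than in control cells and 2 were lower, 13 of 35. Over all genes tested, 23.4% passed in this comparison, 12.4% higher and 11% lower. Among the cytosolic members 11 rose and 1 fell, and 7 of those that rose also met the 1.5-fold rule, as QARS1 did on falling, beside 6.45% of all genes on the higher side and 5.53% on the lower side. Of the mitochondrial members none rose and 1 fell. The median log2 difference was 0.39 for the cytosolic and -0.03 for the mitochondrial class, beside -0.03 for all genes. When the libraries were scaled to their unadjusted totals, which moved the median of all genes by -0.10, 9 members were higher and 4 lower.

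MARS1, which charges methionine tRNAs, including the initiator, changed most. Its level was 120.1, 113, 95.9 and 108 CPM in the 4 control libraries and 249, 259, 235 and 251 CPM in the 4 AII + EGF libraries. With AII alone it was 171, 186, 214, 217 and 198 CPM, and with EGF alone 162, 148 and 179.98 CPM. The 4 groups did not overlap except for AII and EGF with each other. MARS1 was 2.28-fold higher with AII + EGF than in control cells (log2 difference 1.19 ± 0.19, adjusted p 2.87e-06). MARS1 shares 519 exon bases with ARHGAP9 and 355 with DDIT3, both on the opposite strand. DDIT3 encodes the stress factor CHOP, and its own count fell by 1.01 ± 0.20. The sources used here do not say whether reads were counted by strand.

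YARS1, for tyrosine, stood at 189.9, 172, 157 and 136 CPM in control cells and at 301, 309, 332 and 383 CPM under AII + EGF, a log2 difference of 1.02 ± 0.13 (adjusted p 5.69e-08). With AII alone YARS1 was at 261, 264, 288, 306 and 278 CPM, and with EGF alone at 221, 217 and 236 CPM. As for MARS1, both single stimuli lay above control in every library and the joint stimulus was highest, with AII + EGF and AII overlapping between 301 and 306 CPM. WARS1, for tryptophan, was at 69.8, 68.2, 55.7 and 52.1 CPM in control cells, at 82.5, 82.4, 114, 114 and 96.5 CPM under AII, at 82.2, 86.7 and 88.5 CPM under EGF, and at 112, 108, 121 and 132 CPM under AII + EGF (0.95 ± 0.15 against control, adjusted p 2.21e-06). Control was lowest for WARS1 too, and AII and AII + EGF overlapped.

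GARS1, the glycine enzyme of cytosol and mitochondria, was at 129.6, 116, 110.4 and 85.5 CPM in control cells and at 197, 181, 213 and 225 CPM under AII + EGF (0.89 ± 0.13, adjusted p 8.77e-07). AII alone gave 124, 135, 149, 166 and 133 CPM and EGF alone 145, 145 and 157 CPM, so that AII overlapped control and neither single stimulus reached the AII + EGF range. CARS1, for cysteine, was at 41.1, 33.8, 24.4 and 29.2 CPM in control cells, at 38.8, 46.9, 50.5, 55.2 and 44.9 CPM under AII, at 34.9, 35.6 and 33.8 CPM under EGF and at 49.9, 52.2, 52.7 and 58.1 CPM under AII + EGF (0.73 ± 0.15, adjusted p 0.000137). For CARS1 the EGF libraries lay within the control range, while the AII and AII + EGF libraries overlapped. The other cytosolic members that rose were IARS1 for isoleucine (0.69 ± 0.09), HARS1 for histidine (0.59 ± 0.08), NARS1 for asparagine (0.58 ± 0.09), SARS1 for serine (0.54 ± 0.13), FARSB, the beta subunit of the phenylalanine enzyme (0.39 ± 0.12), and EPRS1 for glutamate and proline (0.32 ± 0.09). The calls for FARSB and EPRS1 were each lost without any 1 of 5 of the 8 libraries (control replicates 4 and 6 and AII + EGF replicates 3 and 5 for both, control replicate 5 for FARSB and control replicate 3 for EPRS1), with adjusted p up to 0.0542, and that for SARS1 without control replicate 6. Exons are shared with genes on the opposite strand by HARS1 (1090 bases with WDR55 and 108 with HARS2), YARS1 (396 with S100PBP), GARS1 (312 with GARS1-DT) and CARS1 (205 with CARS1-AS1). WARS1 shares 385 bases with a long noncoding RNA gene and 287 with WDR25, both on the opposite strand. HARS1 shares 176 bases with DND1 on its own strand. FARSA, the alpha subunit of the same enzyme as FARSB, had a difference of 0.06 ± 0.14.

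**Figure D1:**
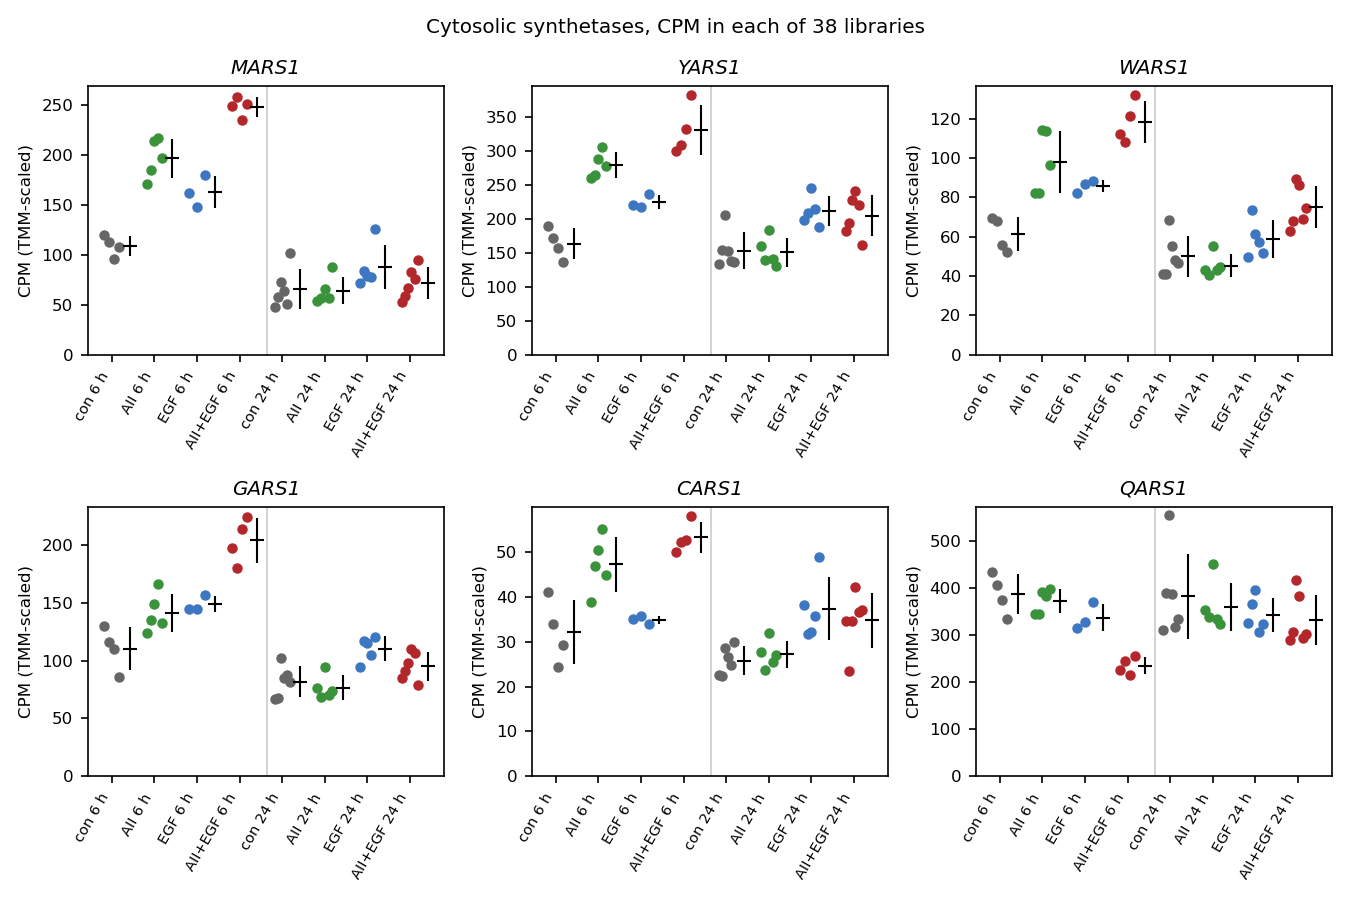
CPM after TMM scaling of 6 cytosolic synthetases, on a linear axis from 0, by group at 6 h and 24 h. Each point is 1 of the 38 libraries and the crosses beside the points give the group mean with its SD. MARS1, YARS1, WARS1, GARS1 and CARS1 had their highest mean with AII + EGF at 6 h, and QARS1 was lowest there.

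QARS1 went the other way. This glutamine enzyme of the multi-synthetase complex was at 433, 406, 375 and 335 CPM in control cells, at 344, 344, 391, 384 and 398 CPM under AII, at 315, 327 and 369.7 CPM under EGF and at 226, 245, 215 and 255 CPM under AII + EGF. The AII + EGF libraries lay below all other libraries at 6 h, and QARS1 fell by 0.72 ± 0.14 against control (adjusted p 8.68e-05). No exon of QARS1 overlaps that of another gene in the annotation used. KARS1, the lysine enzyme of cytosol and mitochondria, was at 166, 144, 139 and 120.3 CPM in control cells and at 134, 133, 151 and 169 CPM under AII + EGF, with a log2 difference of 0.05 ± 0.14 (adjusted p 0.841). Of the 2 enzymes that serve both compartments, GARS1 thus passed the test and KARS1 did not.

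Members of the multi-synthetase complex split at 6 h. Of the 7 complex members described, MARS1, IARS1 and EPRS1 rose, QARS1 fell and 3 did not pass, with a median log2 difference of 0.17. Of the 12 outside the complex, 8 rose and none fell, with a median of 0.56. Of the 12 synthetases listed as ATF4 targets, 9 rose and none fell, with a median of 0.63, whereas of the 7 other cytosolic ones HARS1 and FARSB rose and QARS1 fell, with a median of 0.06. The median over all genes was -0.03, and 12.4% of them passed on the higher side. The list of ATF4 targets was drawn up with earlier results of these data known. The split by this list is therefore a description and no independent support for a role of ATF4, which was not tested.

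Because many cytosolic members moved together, their promoters were searched for composite elements of the C/EBP-ATF type, TGATGNAA, on both strands. RefSeq promoter sequences of 300 bases, 250 before to 50 after the start site on GRCh38.p14, were at hand for 30 of the 35 members. These members had 39 promoter sequences in the table, 21 cytosolic and 18 mitochondrial, and a member was counted once when any of its sequences held the letters. The element was in 7 of 16 cytosolic members (AARS1, CARS1, GARS1, IARS1, MARS1, NARS1 and TARS1), and in 1 of 14 mitochondrial members (YARS2). Counted by sequence, it was in 7 of 21 cytosolic and 1 of 18 mitochondrial promoters and in 3.62% of all 35116 promoters. A match describes the letters of the window and was not tested as a binding site. The 28 bases around each match are printed below in the orientation in which the element reads TGATGNAA, with the element in capitals.

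MARS1 (chr12:57488054-57488081, minus strand): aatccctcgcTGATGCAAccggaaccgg
CARS1 (chr11:3057408-3057435, plus strand): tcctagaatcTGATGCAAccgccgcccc
IARS1 (chr9:92293693-92293720, plus strand): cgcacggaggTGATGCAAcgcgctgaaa
NARS1 (chr18:57621805-57621832, minus strand): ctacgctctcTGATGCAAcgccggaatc
TARS1 (chr5:33440957-33440984, minus strand): ctggaccagcTGATGCAAtcgaaaggcg
AARS1 (chr16:70289676-70289703, plus strand): ctaacttggcTGATGCAActgcgagaaa
GARS1 (chr7:30594835-30594862, minus strand): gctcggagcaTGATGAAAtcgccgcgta
YARS2 (chr12:32756077-32756104, minus strand): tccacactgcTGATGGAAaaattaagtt

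Of the 7 cytosolic genes with the element, 5 rose at 6 h with AII + EGF, and TARS1 (0.33 ± 0.11) and AARS1 (0.17 ± 0.09) did not pass. WARS1, HARS1, SARS1, FARSB and EPRS1 rose with no such letters in their window, and YARS1 had no promoter sequence in the table. MARS1, the member with the largest change, carries the element next to its start site, and its upstream stretch (chr12:57487914-57488071, plus strand) is printed up to the element, which reads TTGCATCA on this strand and stands in capitals.

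MARS1 upstream stretch: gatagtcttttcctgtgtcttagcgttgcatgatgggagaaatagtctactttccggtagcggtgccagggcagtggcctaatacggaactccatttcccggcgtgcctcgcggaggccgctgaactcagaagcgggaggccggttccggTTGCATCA

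Other elements were searched in the same windows on both strands. The AP-1 type letters TGANTCA were in none of the 39 promoters, against 7.71% of all promoters, and the EGR type letters GCGTGGGCG were in 1 promoter, of CARS2, against 0.795%. The E-box CACGTG was in 1 cytosolic promoter, of IARS1, and in 4 mitochondrial ones, of CARS2, EARS2 and MARS2, against 7.26%. No match says only that these letters are not in the window.

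Among the mitochondrial synthetases at 6 h, only IARS2 passed with AII + EGF, and it fell. IARS2, the mitochondrial isoleucine enzyme, was at 242, 214, 224 and 199 CPM in control cells, at 187, 189.8, 194, 200.4 and 213 CPM under AII, at 187, 191 and 206 CPM under EGF and at 143, 147, 164 and 179 CPM under AII + EGF. All 4 AII + EGF libraries lay below the 12 others at 6 h (-0.47 ± 0.09, adjusted p 3.23e-05). The other 15 mitochondrial members did not pass, from FARS2 for phenylalanine at -0.44 ± 0.17 (adjusted p 0.0493) to EARS2 for glutamate at 0.24 ± 0.12 (adjusted p 0.114).

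**Figure D2:**
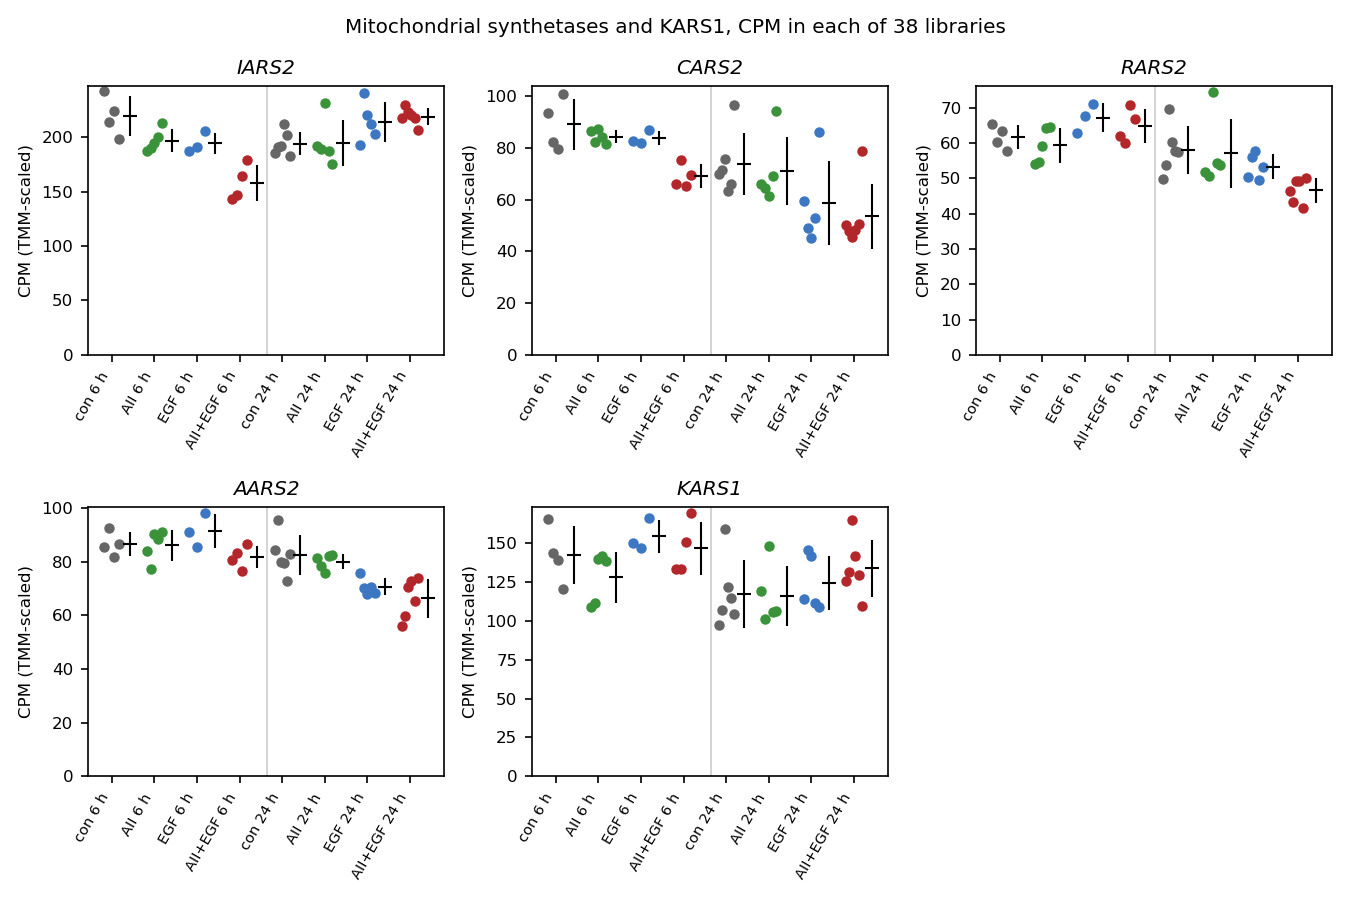
CPM after TMM scaling of 4 mitochondrial synthetases and KARS1, on a linear axis from 0, by group at 6 h and 24 h. Each point is 1 of the 38 libraries and the crosses beside the points give the group mean with its SD. IARS2 was lowest with AII + EGF at 6 h, and CARS2, RARS2 and AARS2 were low with AII + EGF at 24 h, where 1 CARS2 library stood above the rest of its group, while KARS1 overlapped between AII + EGF and control at both times.

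For 13 amino acids, 1 cytosolic and 1 mitochondrial gene with the same letter code are described, which leaves out EPRS1, EARS2 and PARS2 and the 2-subunit phenylalanine enzyme with FARS2, so that the response of the pair could be read side by side. In AII + EGF against control at 6 h, the cytosolic difference was above the mitochondrial one in 11 of the 13 pairs. The gap was widest for the isoleucine pair, with IARS1 at 0.69 and IARS2 at -0.47, the only pair in which one member rose and the other fell. Methionine gave 1.19 for MARS1 and 0.13 for MARS2, and cysteine 0.73 for CARS1 and -0.37 for CARS2. At 24 h the cytosolic difference was the higher in 10 of 13 pairs, with CARS1 at 0.43 and CARS2 at -0.46.

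**Figure D3:**
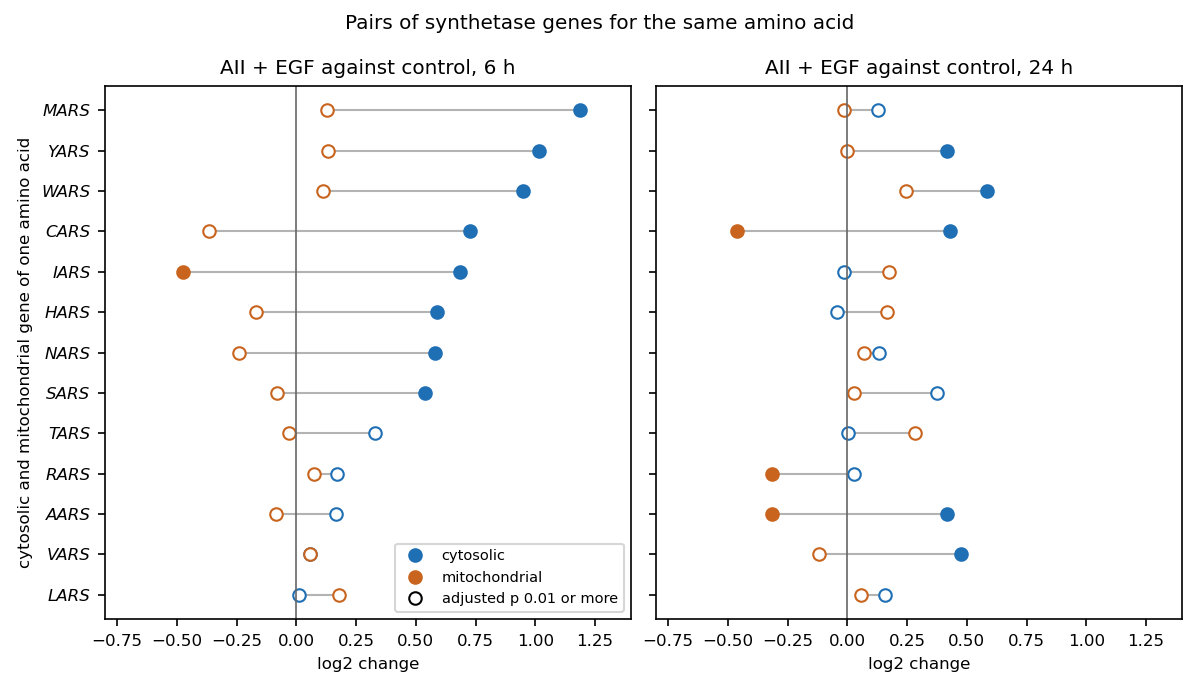
Log2 difference of AII + EGF against control for 13 amino acids with a cytosolic and a mitochondrial synthetase of the same letter code, at 6 h and at 24 h. Points mark the 2 genes of a pair, lines join them and open points had an adjusted p of 0.01 or more. The cytosolic point lies to the right in 11 of 13 pairs at 6 h and in 10 at 24 h, and the isoleucine pair has opposite signs at 6 h.

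With AII alone for 6 h, 4 members were higher than in control cells and none was lower, while 0.922% of all genes passed and 0.836% did so on the higher side. These were MARS1 (0.85 ± 0.18), YARS1 (0.77 ± 0.12), WARS1 (0.67 ± 0.14) and IARS1 (0.40 ± 0.08), all cytosolic and all on the list of ATF4 targets. The first 3 also met the 1.5-fold rule, beside 0.459% of all genes on the higher side. CARS1 was at 0.56 ± 0.14 (adjusted p 0.0218), and no mitochondrial member passed. Without control replicate 5 or 6 or AII replicate 3, each left out alone, YARS1 was the only member that passed, and without AII replicate 4 there were 2.

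With EGF alone for 6 h, IARS1 passed (0.38 ± 0.09, adjusted p 0.0065), against 3.37% of all genes, with 2.71% on the higher side. It did not meet the 1.5-fold rule, which 1.94% of all genes met. Of the 19 cytosolic differences 18 were above 0, with a median of 0.25, beside 48.4% above 0 and a median of -0.01 over all genes, and unadjusted library totals moved the latter by -0.10. Among those that did not pass were MARS1 (0.58 ± 0.20, adjusted p 0.0705), YARS1 (0.46 ± 0.14, adjusted p 0.0349) and HARS1 (0.35 ± 0.09, adjusted p 0.0114). The EGF group at 6 h was the smallest, with 3 libraries, and the call for IARS1 was lost without any 1 of them or of control replicates 4, 5 and 6 (0.32 to 0.41, adjusted p up to 0.0615). With all 48 libraries, 8 members passed, namely MARS1, GARS1, WARS1, YARS1, FARSB, HARS1, IARS1 and NARS1, and 6.82% of all genes did. That fit put back libraries of the near-identical pairs. EGF replicate 1 matched AII + EGF replicate 4 at 6 h, and EGF replicates 2 and 6 matched each other. Control replicates 1 and 2 matched 24 h libraries labelled EGF and AII. The EGF libraries put back can therefore not be taken as separate EGF replicates.

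Against the single stimuli at 6 h, AII + EGF was higher for some members and lower for others. Against AII alone 6 members were higher and 2 lower, and 17.6% of all genes passed, 9.48% higher and 8.08% lower. HARS1 (0.54), GARS1 (0.53), FARSB (0.49), TARS1 for threonine (0.39), NARS1 (0.35) and IARS1 (0.29) were higher, and QARS1 (-0.66) and IARS2 (-0.32) were lower. QARS1 met the 1.5-fold rule, against 7.6% of all genes. With unadjusted library totals these numbers became 3 higher and 3 lower. With 1 library left out, IARS1 lost its call against AII in 7 of 9 fits (kept only without AII replicate 3 or 4), TARS1 in 5 (AII replicates 1, 2 and 5, AII + EGF replicates 3 and 5), NARS1 in 3 (AII replicate 1, AII + EGF replicates 3 and 5), IARS2 in 3 (AII replicate 5, AII + EGF replicates 1 and 2) and FARSB in 1 (AII + EGF replicate 5). Against EGF alone CARS1 (0.61) and YARS1 (0.56) were higher, where 5.41% of all genes passed and 2.7% did so on the higher side. CARS1 met the 1.5-fold rule, against 2.92% of all genes. With unadjusted totals 4 members were higher and 2 lower, and with a block for stretches of consecutive library titles, which pass once through the 4 treatments, 10 members passed, against 9.43% of all genes. CARS1 lost this call without any 1 library of these 2 groups (0.57 to 0.64, adjusted p up to 0.0474), and YARS1 without any EGF library or without AII + EGF replicate 3 or 5 (0.48 to 0.59, adjusted p up to 0.0412).

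The counts against the single stimuli at 6 h rest on which libraries carry which label. With the 2 libraries of doubtful label put back under their labels, no member passed against AII and none against EGF, beside 2.59% and 0.244% of all genes. In the library labelled AII 6 h replicate 6, MARS1 was at 218 CPM and QARS1 at 197 CPM. In the library labelled AII + EGF 6 h replicate 6, MARS1 was at 176 CPM and QARS1 at 291 CPM. The QARS1 value of the former lay below every other AII library, and that of the latter above every other AII + EGF library.

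No member passed the test of interaction at 6 h, which asks whether the response to AII + EGF differs from the sum of the separate responses on the log2 scale. Over all genes 0.265% passed. At an unadjusted p under 0.05 there were 2 members, LARS1 for leucine (-0.29 ± 0.11) and QARS1 (-0.46 ± 0.20), with adjusted p of 0.319 and 0.398. The share of all genes under that unadjusted limit was not counted, so these 2 are not calls. For MARS1 the interaction was -0.25 ± 0.26, for YARS1 -0.21 ± 0.18 and for WARS1 -0.21 ± 0.21. No member passed with DESeq2, with any other scaling, or with the block for stretches of titles. In simulated counts this test recovered 7 of 50 genes with a 1.5-fold interaction and 27 of 50 with a 2-fold one, so that small interactions were hard to detect with these libraries.

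**Figure D4:**
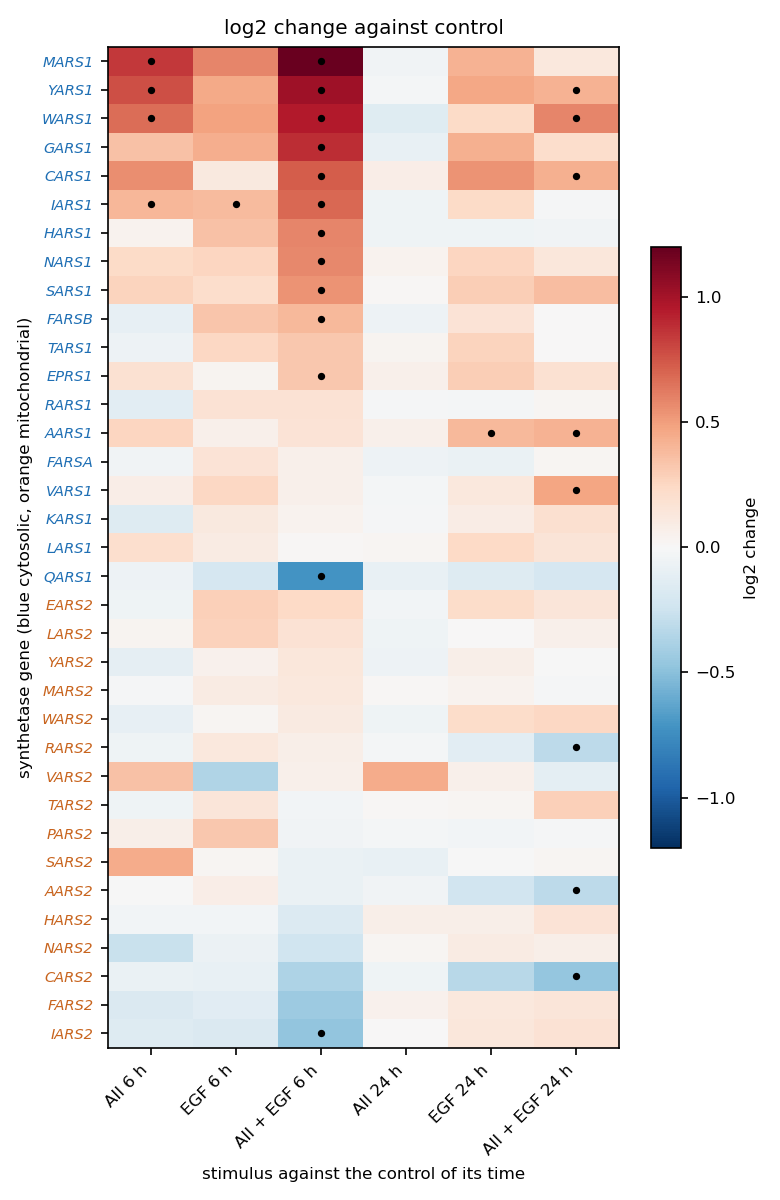
Log2 difference of the 35 synthetases for AII, EGF and AII + EGF against control at 6 h and 24 h, with cytosolic members above mitochondrial ones. Colour runs from lower to higher than control and a dot marks an adjusted p under 0.01. The largest number of dots, 12, lies in the cytosolic block under AII + EGF at 6 h, and the column for AII at 24 h has none.

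After 24 h AII alone had no member past the threshold, and no gene at all passed (0% of 19626). No member reached even an unadjusted p under 0.05, and DESeq2 gave no call either. The member differences lay between -0.14 for WARS1 and 0.45 for VARS2, the latter from counts as low as 4 in a library.

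With EGF for 24 h AARS1, for alanine, was higher (0.39 ± 0.08, adjusted p 0.00478), and 0.586% of all genes passed, with 0.392% on the higher side. It did not meet the 1.5-fold rule, which 0.245% of all genes met. CARS1 (0.53 ± 0.12, adjusted p 0.0167), YARS1 (0.46 ± 0.11, adjusted p 0.0186), GARS1 (0.43 ± 0.11, adjusted p 0.0296) and MARS1 (0.41 ± 0.16, adjusted p 0.179) were above it in size and missed the threshold. The AARS1 call was lost without control replicate 1, 4, 5 or 6 or EGF replicate 1, 3, 4 or 5, each left out alone (0.35 to 0.40, adjusted p up to 0.0351), and with all 48 libraries no member passed, against 0.031% of all genes. DESeq2 called 6 members, all higher, against 1.01% of all genes on the higher side. With the block for stretches of titles 11 members passed, against 5.48% of all genes.

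With AII + EGF for 24 h, 5 members were higher and 3 were lower than in control cells, 8 of 35, while 10.4% of all genes passed, 5.29% higher and 5.1% lower. None met the 1.5-fold rule, against 2.9% of all genes. All members that rose were cytosolic and all that fell were mitochondrial. With other scalings the numbers were 6 higher and 1 lower (RLE factors) and 7 higher and 2 lower (unadjusted totals).

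WARS1 had the largest rise at 24 h. It ranged from 40.8 to 68.6 CPM over 6 control libraries with a median of 47.5 CPM, and from 63.0 to 89.2 CPM over 6 AII + EGF libraries with a median of 72.0 CPM. The ranges overlapped through 1 control library, and the log2 difference was 0.58 ± 0.12 (adjusted p 0.000465). VARS1 for valine (0.48 ± 0.12), CARS1 (0.43 ± 0.12), YARS1 (0.42 ± 0.10) and AARS1 (0.42 ± 0.08) followed. The VARS1 call was lost without control replicate 1, 4 or 5 or AII + EGF replicate 3 or 4, and that of YARS1 without control replicate 1 or 5 or AII + EGF replicate 3, 4 or 5. CARS1 lost its call in 9 of 12 such fits (0.37 to 0.44, adjusted p up to 0.0348) and kept it without control replicate 3 or 6 or AII + EGF replicate 2. VARS1 and AARS1 had not passed at 6 h, with differences of 0.06 ± 0.14 and 0.17 ± 0.09. MARS1, first at 6 h, was at 0.13 ± 0.15 after 24 h, with 47.8 to 102 CPM in control and 53.0 to 95.4 CPM in AII + EGF libraries.

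The 3 mitochondrial members that fell at 24 h were CARS2, RARS2 and AARS2. CARS2, for cysteine, ranged from 63.3 to 96.6 CPM in control libraries (median 70.7) and from 45.4 to 78.6 CPM with AII + EGF (median 49.2), and 5 of 6 AII + EGF libraries lay below every control library (-0.46 ± 0.13, adjusted p 0.00931). Replicate 6 was the highest CARS2 library in each 24 h group. The CARS2 call was kept without AII + EGF replicate 6 or control replicate 4 or 5 and lost without any 1 of the other 9 libraries (-0.48 to -0.35, adjusted p up to 0.0546). RARS2, for arginine, ranged from 49.7 to 69.6 CPM in control libraries (median 57.6) and from 41.6 to 50.2 CPM with AII + EGF (median 47.8), with a difference of -0.32 ± 0.08 (adjusted p 0.00623), lost without control replicate 3, 4, 5 or 6 or AII + EGF replicate 1, 2 or 5 (adjusted p up to 0.0288). With RLE factors CARS2 and RARS2 did not pass. AARS2, for alanine, ranged from 72.8 to 95.4 CPM (median 81.4) and from 56.0 to 73.9 CPM (median 67.8) in the same groups, with a difference of -0.31 ± 0.07 (adjusted p 0.00102). For RARS2 and AARS2 the 2 groups overlapped at their edges only. CARS2 shares 334 exon bases with ING1 on the opposite strand, and AARS2 235 with TMEM151B. The alanine pair thus had AARS1 higher and AARS2 lower after 24 h, and the cysteine pair CARS1 higher and CARS2 lower, the latter on calls that most single omissions ended.

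Against AII alone at 24 h, WARS1 (0.73 ± 0.13), VARS1 (0.50 ± 0.12), YARS1 (0.44 ± 0.11) and AARS1 (0.35 ± 0.08) were higher with AII + EGF, and 4.64% of all genes passed, with 2.38% on the higher side. WARS1 also met the 1.5-fold rule, against 0.856% of all genes on the higher side, and was the only one of the 4 that kept its call whichever library was left out. With unadjusted totals 6 members were higher and 1 lower. Against EGF alone at 24 h no member passed, where 0.168% of all genes did. With the block for stretches of titles WARS1 (0.39), TARS2 (0.27) and IARS1 (-0.22) passed, against 1.83% of all genes. At an unadjusted p under 0.05 there were 6 members against EGF, led by WARS1 (0.35 ± 0.12) and VARS1 (0.35 ± 0.12) on the higher side and by TARS1 (-0.27 ± 0.09) and IARS1 (-0.24 ± 0.07) on the lower side. The interaction at 24 h had no passing member (0% of all genes), with 3 at an unadjusted p under 0.05 and none with DESeq2. For these comparisons the share of all genes at an unadjusted p under 0.05 was not counted, so such members are not calls.

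**Figure D5:**
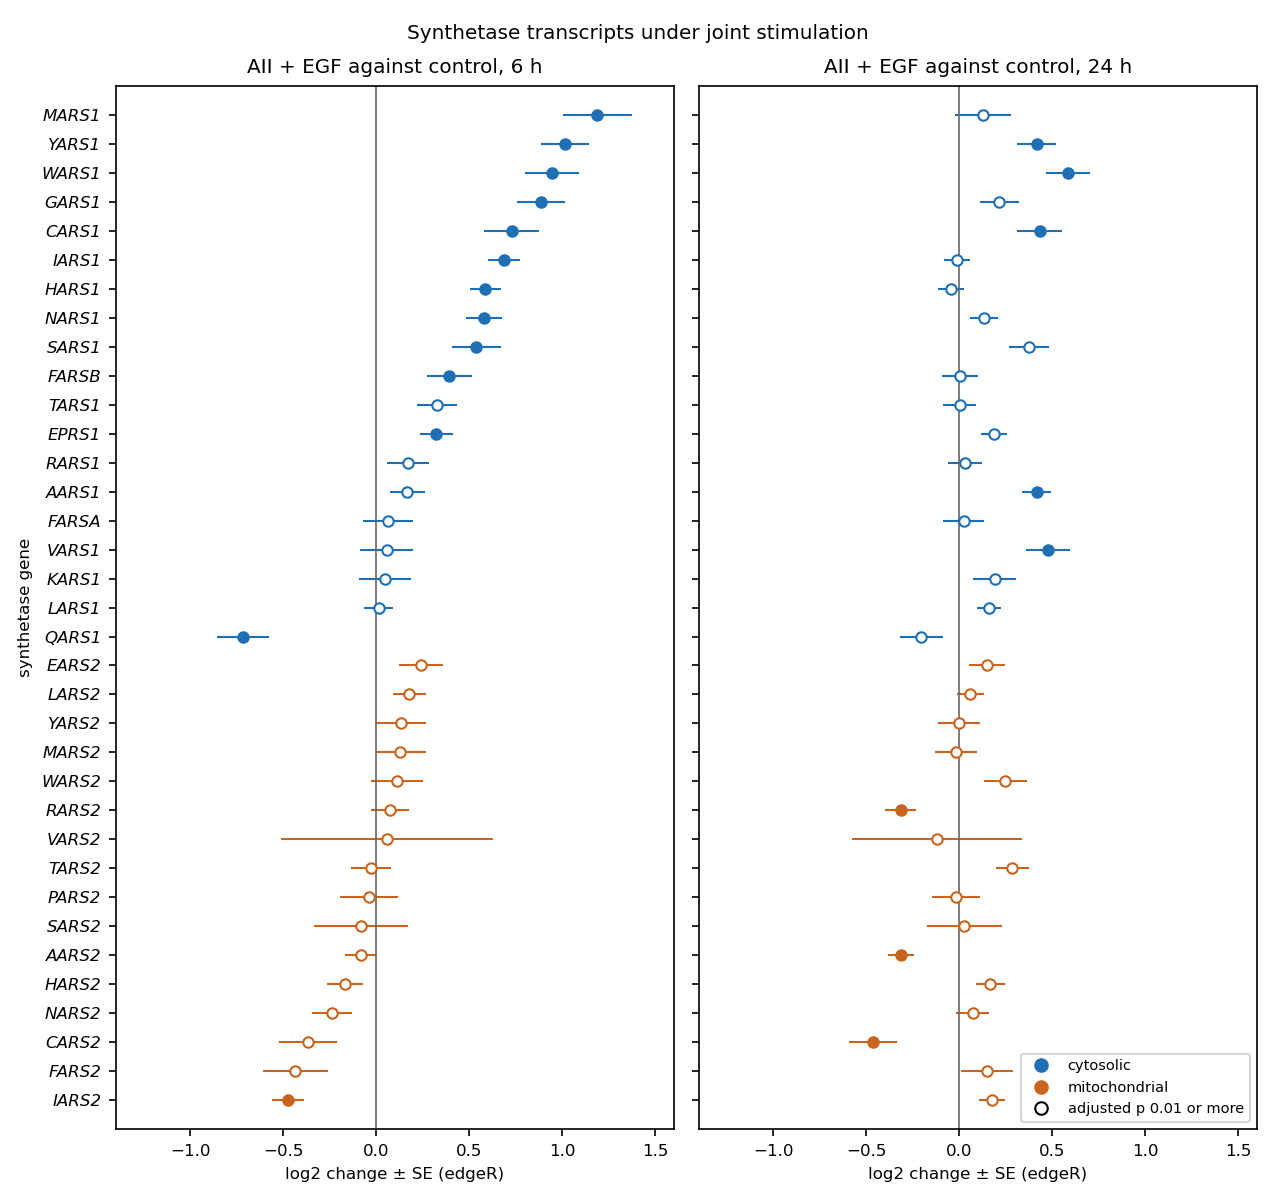
Log2 difference of AII + EGF against control (x axis, with standard errors) for each of 35 synthetases (y axis), at 6 h in the left panel and at 24 h in the right one, each against the control of its own time. Open points had an adjusted p of 0.01 or more. MARS1 lies at 1.19 at 6 h and 0.13 at 24 h, WARS1 at 0.95 and 0.58, and QARS1 and IARS2 lie to the left of 0 at 6 h.

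The response to AII + EGF was compared between times by testing the 24 h difference minus the 6 h difference. It was lower at 24 h for 6 members and higher for 1, while 16.4% of all genes passed, 8.84% lower and 7.59% higher. MARS1 changed most (-1.06 ± 0.24), followed by IARS1 (-0.70 ± 0.11), GARS1 (-0.67 ± 0.17), HARS1 (-0.63 ± 0.11), YARS1 (-0.60 ± 0.17) and NARS1 (-0.45 ± 0.12). IARS2 went up (0.65 ± 0.11), from a fall at 6 h to 0.17 ± 0.07 at 24 h. WARS1 (-0.36 ± 0.19, adjusted p 0.157) and CARS1 (-0.30 ± 0.19, adjusted p 0.269) passed against control at both times and their change between times did not pass. With unadjusted totals the numbers were 6 higher and 5 lower, and the 7 members that passed kept their signs in all settings tried. With 1 library left out, the calls for YARS1 and NARS1 were each lost in 8 of 20 fits (adjusted p up to 0.0289 and 0.0238) and that for GARS1 without control 6 h replicate 6.

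Genes that work beside the synthetases were taken from lists, to be read against the 12.4% of all genes that rose and the 11% that fell. Of 14 accessory genes, none rose with AII + EGF at 6 h and 3 fell, GATB, a subunit of the amidotransferase that makes mitochondrial glutaminyl-tRNA (-0.95 ± 0.13), PSTK, a kinase of selenocysteine tRNA synthesis (-0.47 ± 0.13), and TARS3 (-0.46 ± 0.08). The symbol of TARS3 ends in 3, which the rule for members does not take in, so the member counts leave it out. The scaffold genes of the multi-synthetase complex, AIMP1 (0.06), AIMP2 (0.49) and EEF1E1 (0.39), did not pass. The 4 cytosolic elongation factors tested did not pass. EEF1G, which every cell uses, was listed at 0. Of 9 mitochondrial translation factors, GFM1 (0.86 ± 0.12) and MTRF1L (0.70 ± 0.09) rose and MTIF3 fell by 0.63 ± 0.15.

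Of 28 other genes of the ATF4 pathway, 9 rose and 2 fell with AII + EGF at 6 h, with a median log2 difference of 0.33, beside 12.4% and 11% of all genes and their median of -0.03. The largest rises were in amino acid transport and serine synthesis, with the cystine carrier SLC7A11 (2.19 ± 0.28), the leucine carrier SLC7A5 (1.74 ± 0.14) and PSAT1 (1.19 ± 0.13). DDIT3 (-1.01 ± 0.20) and SESN2 (-0.63 ± 0.14), both stress genes, fell, and ATF4 mRNA itself was at -0.09 ± 0.12. ASNS, which makes asparagine, had a difference of 0.48 ± 0.30 at 6 h, at means of 2.05 CPM in control and 2.89 CPM with AII + EGF.

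At 24 h with AII + EGF 12 of the 28 pathway genes rose and none fell, beside 5.29% and 5.1% of all genes, including the glutathione-degrading CHAC1 (1.74 ± 0.24), ASNS (1.26 ± 0.23), SLC7A11 (0.94 ± 0.22) and ATF4 (0.52 ± 0.10). Of the 12 listed ATF4 target synthetases, 4 rose at that time, with a median of 0.20. With AII alone at 6 h 5 of the 28 rose, beside 0.836% of all genes, among them SLC7A11 (2.29 ± 0.27), PSAT1 (1.52 ± 0.12) and SLC7A5 (0.87 ± 0.13), and with EGF alone at 24 h 8 rose, beside 0.392% of all genes. Against that, the synthetase counts were 4 and 1 of 12. The list of pathway genes and that of synthetases are described side by side, and no test compared them. Both were drawn up with earlier results of these data known.

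Within the stretches of titles, the members that passed against control had the same direction in each stretch holding both groups (2 stretches at 6 h and 4 at 24 h). At 6 h, replicates 1 and 2 of AII and of AII + EGF lay in a stretch that kept no control and no EGF library. Control replicate 6 was the only library kept from its stretch. For these libraries stimulus and stretch cannot be told apart. The same libraries chose the members that passed, so the agreement in direction is a description only. For AII + EGF against control at 6 h, MARS1, YARS1, WARS1, GARS1, CARS1, IARS1, HARS1 and QARS1 kept their calls under every alternative tried and whichever library was left out. This did not extend to the single stimuli, where with AII at 6 h only YARS1 kept its call in all of them.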

How the data were processed

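RNA-seq counts were analysed for 48 libraries of a stable HEK293 clone, 38 of them in the main comparisons. The deposited values are whole-number read counts per gene, which the authors made with HISAT2 (version 2.1.0 in the submitters' processing notes, build hg38) and featureCounts with Ensembl annotation. Strand setting and treatment of multi-mapping reads are not given in the sources used here.

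Genes were filtered with filterByExpr by group, and counts were scaled by TMM and fitted with edgeR 4.0.16 in R 4.3.3 (glmQLFit and glmQLFTest) as 8 group means in 1 fit. Benjamini-Hochberg adjustment ran over all 19626 genes tested, with a threshold of 0.01. Contrasts were each stimulus against control, AII + EGF against each single stimulus and the interaction, at each time, and the AII + EGF response between times. The depth was 17783804 to 29956472 counts per library for the 38 and up to 36228870 for all 48. In simulated counts for 19626 genes, AII + EGF against control at 6 h recovered 30 of 50 genes changed 1.5-fold and 44 of 50 changed 2-fold, with 3 false calls. The simulated libraries were drawn independently, with no shift shared by a stretch of titles. These numbers therefore do not show how many false calls such shifts would give.

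The rule for members gave 37 genes, of which 2 are not reported here. Members, gene lists and tests were chosen with earlier results of these data known. Given by library were, per class, up to 6 members with the largest differences among those past the threshold with AII + EGF at either time, plus GARS1 and KARS1. Alternatives were DESeq2 1.42.0, RLE factors, unscaled totals, no filter, other library sets, other thresholds, fits of the compared groups only, a block for stretches of consecutive titles, and leaving out each library. Transcript lengths and exon overlaps came from GENCODE v44 mapped to GRCh37, and no coordinates were taken from it, since the counts use hg38. Promoters came from RefSeq on GRCh38.p14 and 5 members had none there.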

Additional observations from a re-analysis of the deposited data

Results flagged for a closer look

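In 8 of 77 combinations of a group of 4 to 6 libraries and a synthetase given by library, 1 library stood far from the others of its group by Dixon's criterion, where chance gives about 1 in 20 for independent combinations. MARS1 was at 127 CPM in EGF 24 h replicate 6, with the next library at 84.4 CPM. CARS2 was highest in replicate 6 in 3 groups at 24 h, at 96.6 CPM in control, at 94.2 CPM under AII and at 78.6 CPM under AII + EGF, with the next libraries at 75.6, 69.2 and 50.5 CPM. Replicate 3 stood apart at 24 h for YARS1 in control (206 CPM, next 154 CPM), for QARS1 in control (554 CPM, next 390.04 CPM) and under AII (451 CPM, next 353 CPM), and for RARS2 under AII (74.5 CPM, next 54.4 CPM). The libraries of replicate 6 named here lay in 1 stretch of titles and those of replicate 3 in another, so the 77 combinations are not independent. What set these libraries apart was not tested.

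The response to AII + EGF differed between 24 h and 6 h, in the test of the difference itself, for 7 members. It was lower at 24 h for MARS1 (-1.06), IARS1 (-0.70), GARS1 (-0.67), HARS1 (-0.63), YARS1 (-0.60) and NARS1 (-0.45) and higher for IARS2 (0.65), all on the log2 scale. In control cells the mean level of MARS1 was 109 CPM at 6 h and 66.1 CPM at 24 h, a difference that was not tested.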

How the results depend on the processing

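The numbers of synthetases past the threshold depended on the threshold, on the libraries and on how the spread was shared, whereas none of the 48 member changes past the threshold turned its sign in any of the 10 settings or with 1 library left out. The share of all genes past the threshold moved with the setting too, so these counts describe the setting as well as the synthetases. It was not counted at 0.05, without the filter, in fits of only the groups compared or with unscaled totals. At an adjusted p under 0.05 there were 3 members for EGF at 6 h, 5 for EGF at 24 h, 9 for AII + EGF against EGF at 6 h, 9 against AII at 24 h and 11 for the response between times. The 1.5-fold rule left 0 for EGF at 6 h, 0 for EGF at 24 h, 8 for AII + EGF at 6 h, 0 for AII + EGF at 24 h, 1 each for AII + EGF against AII and against EGF at 6 h, and 1 against AII at 24 h. With all 48 libraries, which include both libraries of each near-identical pair, there were 8 for EGF at 6 h (6.82% of all genes) and 0 for EGF at 24 h (0.031%). In the same fit there were 0 for AII + EGF against AII (3.07%) and against EGF (0.621%) at 6 h. With only the near-identical pairs left out there were 0 for EGF at 6 h and at 24 h, 5 for AII + EGF at 24 h, 0 for AII + EGF against AII and against EGF at 6 h, 2 against AII at 24 h, and 3 for the response between times. Without the filter on low counts there were 0 for EGF at 6 h and at 24 h, and 4 for AII + EGF against AII and 1 against EGF at 6 h. In fits of only the groups compared there were 2 for AII at 6 h, 9 for AII + EGF against EGF at 6 h, 0 for EGF and 0 for AII + EGF at 24 h, 2 for AII + EGF against AII at 24 h, and 4 for the response between times, with fewer libraries to estimate the spread. Unscaled library totals gave 3 for EGF at 24 h, 6 for AII + EGF against EGF at 6 h, 7 against AII at 24 h and 11 for the response between times. DESeq2 gave 2 for EGF at 6 h, 6 for EGF at 24 h and 4 for AII + EGF against EGF at 6 h. For EGF at 24 h it called 1.01% of all genes higher, and its other shares were not counted. RLE size factors moved no total beyond 1.5 times, but AII + EGF at 24 h went from 5 higher and 3 lower to 6 higher and 1 lower. The labels give no replicate numbers (those used follow the order of the libraries) and state no pairing, though libraries of the same time and number share a stretch of titles. Deviations from group means, over genes above 5 CPM, correlated more within stretches of titles (mean r 0.377 over 76 pairs of libraries) than between them (-0.135 over 200 pairs). With the stretch of titles as a replicate block there were 5 members for EGF at 6 h, 11 for EGF at 24 h, 15 for AII + EGF against AII and 10 against EGF at 6 h, 11 against AII and 3 against EGF at 24 h, and 12 for the response between times. With the block the share of all genes was 5.48% for EGF at 24 h, against 0.586% without it. For AII + EGF against EGF it was 9.43% at 6 h and 1.83% at 24 h, against 5.41% and 0.168% without it. For the other comparisons the share with the block was not counted, so their counts with the block cannot be read as particular to the synthetases. With 1 library left out, the count ran from 1 to 5 for AII at 6 h, from 0 to 2 for EGF at 6 h, from 10 to 13 for AII + EGF at 6 h, from 4 to 8 for AII + EGF against AII and from 0 to 1 against EGF at 6 h, from 0 to 3 for EGF at 24 h, from 4 to 8 for AII + EGF at 24 h, from 1 to 6 for AII + EGF against AII at 24 h, and from 4 to 7 for the response between times. It stayed at 0 for AII at 24 h, for AII + EGF against EGF at 24 h and for both interactions. Depth limits VARS2 and SARS2, with 3 and 31 counts in their lowest libraries, and interactions under about 2-fold.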
